A study of Mus musculus with 10 samples.

Results

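This report covers 40 mouse genes of DNA damage signalling and DNA repair, measured in haematopoietic stem cells of control and Dhx16 conditional knockout mice. Dhx16 encodes an RNA helicase of the splicing machinery. The genes were chosen by symbol, and each of the 40 symbols had 1 row among the 52097 genes of the deposited table. The labels give 5 samples titled Dhx16_fl with the genotype WT (called control here) and 5 titled Dhx16_CKO with the genotype KO (called knockout here). By its titles the series set floxed animals against conditional knockouts. The Cre driver, the time since deletion, the strain, age and sex of the animals and whether controls carried Cre are not given in the sources used here. Bone marrow cells were sorted as Lin-Sca-1+c-Kit+CD48-CD150+, and libraries were made from their mRNA with a Smart-Seq V4 kit for very small inputs. Values were taken as FPKM (fragments scaled by transcript length and library size), a unit inferred from the values. On that basis levels of different genes are set side by side, though some libraries shifted with transcript length, as described further on. The library columns are named WT2 to WT6 and CKO7, CKO8, CKO9, CKO12 and CKO13, numbers that do not match the titles. Nothing in the labels says that each sample was a separate animal, so p-values measure only the spread between these libraries.

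Cells meet DNA breaks and base damage with several pathways. The kinases ATM and ATR sense breaks and stalled replication forks and pass the signal to CHK1 and CHK2, which hold the cell cycle. Homologous recombination, with BRCA1 and BRCA2, copies an intact sister chromatid and works mainly in S and G2 phase, and the Fanconi proteins unhook crosslinks at forks. End joining, with Ku and DNA-PK, seals breaks without a template and serves resting cells, while base excision, nucleotide excision and mismatch repair remove damaged or mispaired bases from 1 strand. Quiescent blood stem cells are known to lean on end joining, and loss of Fanconi genes is known to exhaust them.

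Dhx16 itself averaged 17.5 ± 3.81 FPKM over control and 9.49 ± 1.56 over knockout libraries (mean ± SD, n = 5 each), with no overlap between the groups (log2 difference -0.81, limma adjusted p = 0.00127). Depth per library is unknown, and summed FPKM ran from 770789 to 966648. The sort markers Kit and Ly6a (Sca-1) averaged over 100 FPKM in both groups and Slamf1 (CD150) 21.5 and 10.9 FPKM, against 10.3 and 6.86 FPKM for Cd48. Library CKO12 stood low among knockout libraries for long transcripts, and values without it are given where it changed a call. Other lists moved too, and their part in the results below was not tested. All 20 S phase and mitosis genes looked at were called higher in knockout (median log2 difference 1.28), as were all 8 erythroid markers, while all 8 megakaryocyte and platelet markers and all 6 macrophage markers were called lower. The summed FPKM of the 20 S phase and mitosis genes was 895 to 1359 in control and 2526 to 3149 in knockout libraries, and that of the erythroid markers 120 to 397 and 753 to 1177. The macrophage markers summed to 117 to 272 and 10.6 to 27.5 FPKM, and the megakaryocyte and platelet markers to 1490 to 2280 and 713 to 1398 FPKM. Transcripts of granulocytes (6 genes, summed 9623 to 74170 FPKM in control and 8348 to 40842 in knockout) and of bone matrix (6 genes, 3180 to 65871 and 4549 to 47778 FPKM) were high and varied widely within both groups, with 0 of the 12 called by limma and 2, Ltf and Camp, at an unadjusted p under 0.05. No marker of any list had a mean of 0 in either group. Of 5 B lymphocyte and 5 T and NK lymphocyte markers, 2 of each list passed the filter on low values, of which Cd79b, Vpreb1 and Klrb1c were called lower (log2 differences of -0.61, -1.10 and -0.69).

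Of the genes tested, 7 of 15 for homologous recombination and the Fanconi pathway and 4 of 6 for base excision were called higher in knockout, of which 4 and 1 kept the call with libraries scaled to equal totals. Lower were 3 of 5 genes of nucleotide excision repair, 4 of 8 of damage signalling and Rad52, calls that all ended with upper-quartile scaling, where the sign of Chek2 also turned. Of 38 genes tested, 15 (39.5%) were called higher and 8 (21.1%) lower by limma at a Benjamini-Hochberg adjusted p under 0.05. Among all 13448 genes tested, 13.4% were called higher and 36.4% lower. The median log2 difference, knockout minus control on the log2(FPKM + 1) scale, was 0.29 over the 38 genes and -0.26 over all genes tested. These counts moved with the scaling between libraries, as described further on. Bard1 and Lig4 were not tested, because each was at 1 FPKM or more in 4 libraries and the filter asked for 5, while the other 38 were at or above it in all 10. Every knockout library lay above every control library for 5 of the 40 genes (Exo1, Rad54l, Apex1, Chek1 and Bard1) and below for 6 (Rad52, Xpa, Xpc, Ercc1, Atr and Trp53bp1). Over all genes tested, a set that leaves out Bard1 and Lig4, 7.76% lay wholly above and 25.1% wholly below. In bulk RNA of a sorted population, fewer cells of a type and less RNA per cell cannot be told apart.

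**Figure D1:**
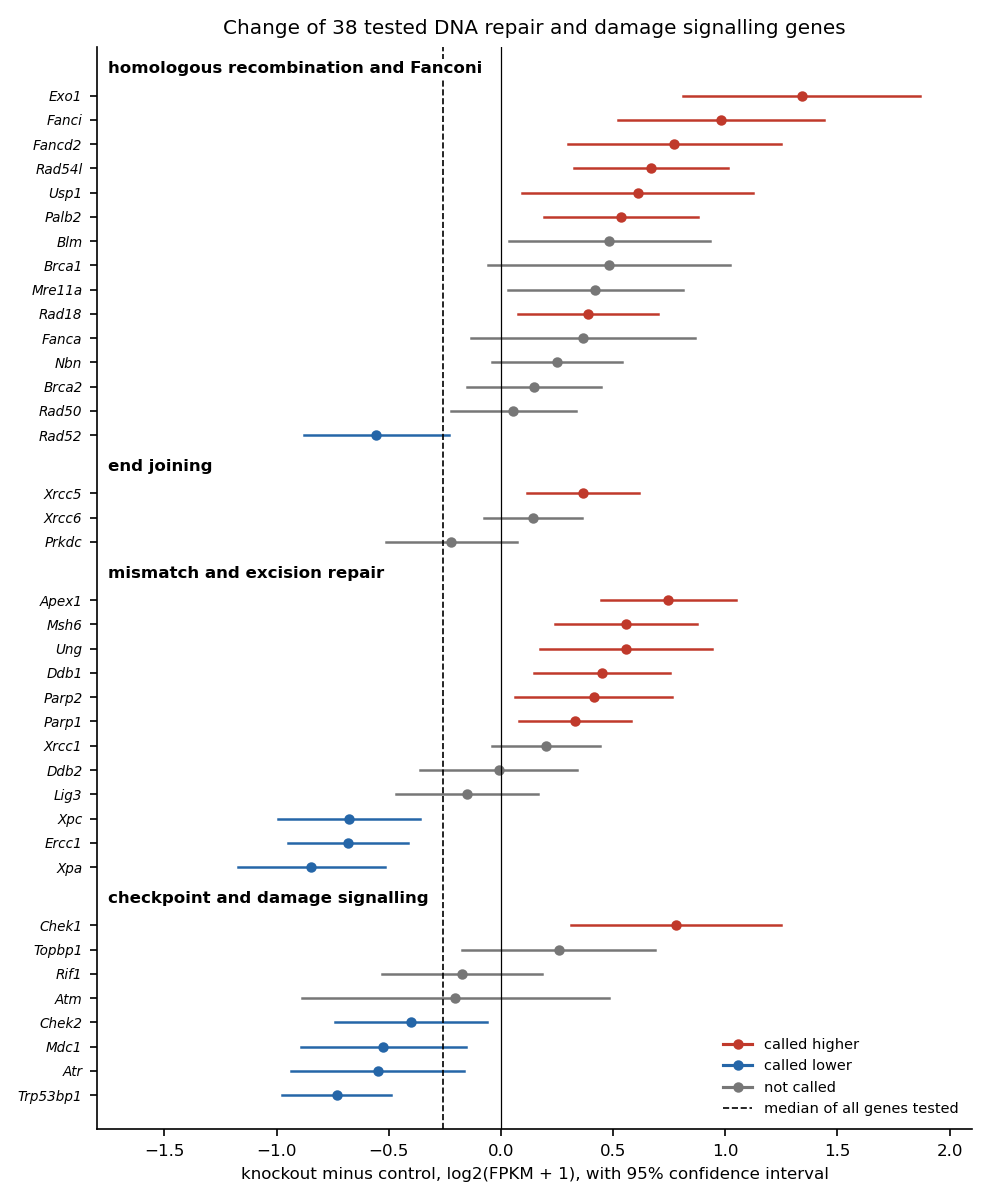
Log2 difference on the FPKM + 1 scale (x axis, knockout minus control) of the 38 genes tested, with 95% confidence intervals from limma, sorted within 4 role classes. Homologous recombination and Fanconi genes lie mostly right of the dashed median of all genes tested (-0.26), with Rad52 (-0.55) the exception among called genes, and the falls of Xpa, Ercc1, Xpc and Trp53bp1 stand left of it.

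Homologous recombination and Fanconi genes held the 2 largest rises of the set, Exo1 and Fanci. Of 15 tested, 7 were called higher and 1 lower, with a median log2 difference of 0.48. Exo1, the exonuclease that lengthens the single strand at a resected break and also serves mismatch repair (ENSMUSG00000039748, GRCm38 chromosome 1, 175880581 to 175913489), was at 8.24, 11.95, 7.05, 5.07 and 10.54 FPKM in WT2 to WT6. It was at 18.39, 28.61, 28.83, 13.74 and 26.95 FPKM in CKO7, CKO8, CKO9, CKO12 and CKO13. All 5 knockout libraries were above all controls, and CKO12 came closest to them. The log2 difference was 1.34 (standard error 0.24, limma adjusted p = 0.000903), and the mean was 2.72 times the control mean.

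Fanci and Fancd2 encode the paired subunits of the clamp that closes on crosslinked DNA when the Fanconi core tags it with ubiquitin. Fanci (chromosome 7, 79391929 to 79450264) was at 2.59, 2.80, 1.34, 1.84 and 2.69 FPKM in control and at 6.23, 6.51, 6.44, 2.76 and 5.57 FPKM in knockout libraries, in the library order given for Exo1. Fancd2 (chromosome 6, 113531682 to 113597017) was at 3.05, 3.04, 1.64, 2.43 and 3.08 FPKM in control and at 4.63, 7.50, 6.07, 2.65 and 6.14 FPKM in knockout. In both genes 4 knockout libraries stood above every control and CKO12 lay within the control range. The log2 differences were 0.98 for Fanci (SE 0.21, limma adjusted p = 0.00241) and 0.77 for Fancd2 (SE 0.22, limma adjusted p = 0.0112). Exons of Fanci overlap those of Polg in the annotation, which was at 14.7 and 16.7 FPKM and not called (log2 0.17), and the strand setting of the counting is not given in the sources used here.

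Usp1, the enzyme that takes the ubiquitin off FANCD2 again, rose from 24.6 ± 4.14 to 39.8 ± 13.7 FPKM, with CKO9 at 20.21 FPKM, inside the control range of 19.82 to 30.19, and the other 4 knockout libraries above it (31.40 to 53.97). Its limma adjusted p of 0.0495 rose above the threshold without any of 8 single libraries (log2 difference 0.48 to 0.83 over the 10 left-out libraries, adjusted p up to 0.111), and without CKO12 it was 0.0540 at a log2 difference of 0.67. Fanca, the core subunit that holds the Fanconi ligase complex together, averaged 7.44 ± 1.72 and 10.2 ± 3.395 FPKM and missed the threshold (log2 0.37, limma adjusted p = 0.204). Its knockout libraries were at 8.74, 12.72, 12.71, 4.90 and 12.00 FPKM, so that CKO12 was below all 5 controls (5.60 to 10.13 FPKM) and 3 libraries above them. Without CKO12 the log2 difference of Fanca was 0.58 (limma adjusted p = 0.0145), and it was called with median-of-ratios, upper-quartile or authors' scaling (0.60, 0.80 and 0.73). Rad18, the ligase that tags PCNA at stalled forks, went from 14.5 ± 1.997 to 19.4 ± 3.61 FPKM (log2 0.39, limma adjusted p = 0.0398, and up to 0.101 without single libraries, with the call lost in 7 of 10 such fits).

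Rad54l, a motor protein of homologous recombination (chromosome 4, 116094264 to 116123690), was at 12.16, 12.32, 10.08, 7.12 and 9.03 FPKM in control and at 14.68, 19.69, 19.36, 15.15 and 14.02 FPKM in knockout. The groups did not overlap, and the log2 difference was 0.67 (SE 0.16, limma adjusted p = 0.00418). Palb2, which links BRCA1 to BRCA2, rose from 5.13 ± 1.26 to 7.84 ± 1.26 FPKM (log2 0.54, limma adjusted p = 0.0140), with CKO12 at 5.65 FPKM and the other 4 at 8.02 to 8.74.

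The BRCA genes themselves were not called on FPKM as deposited, nor with equal totals, but both were called higher with the other scalings. Brca1, a ligase that directs breaks to recombination (chromosome 11, 101488764 to 101551955), was at 3.14, 2.23, 1.87, 1.87 and 3.81 FPKM in control and at 5.25, 4.93, 5.51, 1.64 and 3.43 FPKM in knockout. The libraries CKO7, CKO8 and CKO9 exceeded every control, while CKO12 held the lowest value of all 10. The log2 difference of 0.48 had a 95% confidence interval of -0.06 to 1.02 (limma adjusted p = 0.124). Without CKO12 it was 0.71 (limma adjusted p = 0.0108). With all libraries it was 0.67, 0.85 and 0.81 with median-of-ratios, upper-quartile and authors' scaling (limma adjusted p = 0.0416, 0.0132 and 0.0253), 0.37 with equal totals (adjusted p = 0.242) and, with library weights, called at 0.59. Brca2, a mediator of homologous recombination (chromosome 5, 150522630 to 150570329), was at 14.39, 16.97, 13.90, 10.50 and 12.09 FPKM in control and at 14.81, 16.53, 16.12, 15.64 and 12.13 FPKM in knockout. These values overlapped throughout, with a log2 difference of 0.15 and an interval of -0.15 to 0.45 (limma adjusted p = 0.387). The same 3 scalings gave 0.39, 0.61 and 0.53 (limma adjusted p = 0.0266, 0.00411 and 0.00822), and equal totals 0.01 (adjusted p = 0.948). Bard1, the partner of BRCA1, was below the filter, yet its knockout libraries (0.72 to 1.24 FPKM) all lay above its control libraries (0.24 to 0.53 FPKM). In the fit without a filter its log2 difference was 0.53 (limma adjusted p = 0.0144).

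The MRE11 complex, which finds and trims broken ends, gave 0 calls of 3 by limma (1, Mre11a, at an unadjusted p under 0.05), while all 3 were higher in the authors' deposited table. All 3 were also called higher with median-of-ratios, upper-quartile or authors' scaling, at log2 differences of 0.66, 0.87 and 0.80 for Mre11a, 0.49, 0.71 and 0.63 for Nbn and 0.30, 0.52 and 0.44 for Rad50. Mre11a was at 9.80 ± 2.55 and 13.4 ± 2.86 FPKM, Nbn at 11.9 ± 2.14 and 14.3 ± 1.72, and Rad50 at 15.998 ± 2.35 and 16.6 ± 2.19 in control and knockout. Their log2 differences were 0.42, 0.25 and 0.05 (limma adjusted p = 0.0684, 0.138 and 0.745). Mre11a was called without CKO12 (log2 0.51, limma adjusted p = 0.0334) or without WT2 (0.54, adjusted p = 0.0234), and Nbn without WT2 (0.34, adjusted p = 0.0398). The helicase gene Blm, which dissolves crossed-over strands, was at 7.19 ± 1.13 and 10.8 ± 3.38 FPKM (log2 0.48, limma adjusted p = 0.0686), and without CKO12 its log2 difference was 0.68 (adjusted p = 0.00282). Blm was called with the same 3 scalings (0.72, 0.92 and 0.85).

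Rad52, which anneals single strands, was the 1 gene of this class called lower. It was at 22.36, 17.36, 23.61, 21.27 and 19.36 FPKM in control and at 16.06, 15.21, 15.62, 9.31 and 13.76 FPKM in knockout (chromosome 6, 119902698 to 119922828). The groups did not overlap, and the log2 difference was -0.55 (SE 0.15, limma adjusted p = 0.00841). With median-of-ratios, upper-quartile or authors' scaling it was -0.31, -0.09 and -0.18 and no longer called, and without CKO12 it was -0.43 (limma adjusted p = 0.0107).

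Among end joining genes, 1 of 3 tested was called on FPKM as deposited and 0 with equal totals, against 2 with each other scaling. Xrcc5, the larger Ku subunit (Ku80) that rings a broken end (chromosome 1, 72307421 to 72394952), was at 19.68, 14.82, 15.96, 13.94 and 14.82 FPKM in control and at 18.85, 21.73, 23.03, 19.75 and 19.81 FPKM in knockout. Only WT2 reached the knockout range, and the log2 difference was 0.37 (SE 0.11, limma adjusted p = 0.0186), or 0.23 with equal totals (adjusted p = 0.187). Its partner Xrcc6 (Ku70) was at 56.1 ± 4.86 and 62.1 ± 5.64 FPKM (log2 0.14, interval -0.08 to 0.36, limma adjusted p = 0.254), and it was called with median-of-ratios, upper-quartile or authors' scaling (0.40, 0.63 and 0.54). Prkdc, the DNA-PK catalytic subunit that Ku recruits, was at 5.41 ± 0.716 and 4.52 ± 0.731 FPKM (log2 -0.22, interval -0.51 to 0.07, limma adjusted p = 0.191), and its sign turned under the upper-quartile and authors' scalings (0.19 and 0.12). Lig4, the ligase that seals the join, was below the filter at 0.978 ± 0.210 and 0.762 ± 0.387 FPKM.

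Of the 6 base excision and single-strand break repair genes in this set, 4 were called higher, beside 13.4% of all genes tested. None of the 6 was called lower by limma, and 0 were lower at an unadjusted p under 0.05. With equal totals Ung, Parp1 and Parp2 lost the call and Apex1 kept it. Neil1 and Nthl1, base excision genes outside this set, were called lower, as described further on. Apex1, the endonuclease that cuts at a lost base (chromosome 14, 50924968 to 50927139), had the highest control level of the 40 genes, at 147.42, 116.07, 160.33, 108.48 and 111.21 FPKM. Its knockout libraries were at 207.86, 221.78, 255.99, 210.65 and 180.20 FPKM, all above control. The log2 difference was 0.75 (SE 0.14, limma adjusted p = 0.000921). Ung, which removes uracil from DNA, rose from 22.4 ± 5.79 to 32.9 ± 5.26 FPKM (log2 0.56, limma adjusted p = 0.0195). The poly(ADP-ribose) polymerase genes Parp1 and Parp2, whose products flag nicks, went from 55.2 ± 6.999 to 69.6 ± 8.07 and from 46.4 ± 12.6 to 60.8 ± 6.83 FPKM. Both were near the threshold (limma adjusted p = 0.0316 and 0.0490), and leaving out single libraries raised these to at most 0.0749 for Parp1 and 0.117 for Parp2, with the call lost in 6 and 9 of 10 such fits (Parp2 without CKO12, log2 0.45 and adjusted p = 0.0520). The scaffold Xrcc1 and the nick ligase Lig3 were not called, at log2 differences of 0.20 and -0.15 (limma adjusted p = 0.147 and 0.410), and that of Lig3 was positive with median-of-ratios, upper-quartile and authors' scaling (0.09, 0.30 and 0.22). Msh6, the mismatch recognition subunit, rose from 22.6 ± 2.99 to 34.0 ± 6.70 FPKM (log2 0.56, limma adjusted p = 0.00716).

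Nucleotide excision repair, which removes bulky lesions such as those made by ultraviolet light, went the other way in 3 of 5 genes. Among all genes tested 36.4% were called lower. Xpa, the protein that checks the opened lesion (chromosome 4, 46155347 to 46196311), was at 22.38, 21.91, 32.04, 20.42 and 21.84 FPKM in control and at 10.74, 11.53, 15.62, 15.14 and 10.72 FPKM in knockout. Ercc1, the partner of the nuclease that cuts 5′ of the lesion (chromosome 7, 19344778 to 19356524), was at 28.56, 22.80, 30.18, 23.96 and 26.15 FPKM in control and at 13.10, 16.83, 14.38, 18.03 and 17.97 FPKM in knockout. Xpc, the first sensor of distorted DNA (chromosome 6, 91489305 to 91515888), was at 27.96, 25.37, 21.49, 27.64 and 24.57 FPKM in control and at 17.94, 14.56, 16.37, 18.90 and 10.74 FPKM in knockout. None of the 3 genes had overlapping groups. Their log2 differences were -0.85, -0.68 and -0.68 (limma adjusted p = 0.000762, 0.000787 and 0.00233). Each kept a negative sign under all 4 other scalings, but the upper-quartile scaling ended the call of all 3 (log2 -0.38, -0.21 and -0.21) and the authors' scaling that of Ercc1 and Xpc (-0.30 for both). Exons of Xpa overlap those of Ncbp1, which was called higher (23.7 to 43.9 FPKM, log2 0.87), and exons of Ercc1 overlap those of Cd3eap, which was not called (log2 0.17).

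The remaining 2 genes of this pathway form the ultraviolet damage sensor. Ddb1, also an adaptor of CUL4 ubiquitin ligases, rose from 82.2 ± 14.6 to 112 ± 16.9 FPKM (log2 0.45, limma adjusted p = 0.0185). Ddb2, its lesion-binding partner and a known p53 target, was at 12.1 ± 2.55 and 11.9 ± 2.27 FPKM (log2 -0.01, interval -0.36 to 0.34, limma adjusted p = 0.963). Its sign turned under 3 of 4 scalings, and under the upper-quartile scaling it was called higher (log2 0.45, limma adjusted p = 0.02515).

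Checkpoint and damage signalling genes had 1 rise (12.5%) and 4 falls (50%) among 8, beside 13.4% higher and 36.4% lower among all genes tested. The median of this class lay at -0.04 relative to that of all genes tested. Chek1, the effector kinase of ATR (chromosome 9, 36708482 to 36727065), was at 8.04, 6.88, 6.83, 2.80 and 5.29 FPKM in control and at 9.45, 12.62, 12.72, 8.39 and 9.86 FPKM in knockout. All knockout libraries lay above control, and the log2 difference was 0.78 (SE 0.22, limma adjusted p = 0.00998). Atr itself (chromosome 9, 95857597 to 95951781) was at 9.08, 6.52, 7.16, 6.88 and 6.13 FPKM in control and at 4.73, 5.52, 5.65, 2.54 and 4.89 FPKM in knockout, again without overlap but in the other direction. Its log2 difference was -0.55 (SE 0.18, limma adjusted p = 0.0223). The call was lost without WT2 (log2 -0.47, limma adjusted p = 0.0572) and with median-of-ratios, upper-quartile or authors' scaling (log2 -0.33, -0.13 and -0.21).

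Trp53bp1, whose product 53BP1 shields broken ends and favours end joining (chromosome 2, 121193281 to 121271407), was at 23.44, 23.27, 21.90, 26.51 and 19.44 FPKM in control and at 11.77, 13.48, 13.19, 13.18 and 15.25 FPKM in knockout. No libraries overlapped, and the log2 difference was -0.73 (SE 0.11, limma adjusted p = 0.000280). It was called lower under every scaling but the upper quartile (log2 -0.26, limma adjusted p = 0.0690). Mdc1, the adaptor that spreads the ATM signal along chromatin, was at 15.55, 14.40, 13.76, 13.14 and 9.09 FPKM in control and at 11.05, 10.30, 7.07, 9.35 and 6.68 FPKM in knockout. WT6 lay inside the knockout range. The log2 difference of -0.52 (limma adjusted p = 0.0218) was not called without WT2, CKO9 or CKO13 (adjusted p up to 0.0557) nor with median-of-ratios, upper-quartile or authors' scaling (-0.28, -0.07 and -0.16).

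Atm and Chek2 form the other kinase pair. Atm (chromosome 9, 53439149 to 53536740) was at 4.81, 2.65, 5.64, 4.43 and 2.85 FPKM in control and at 5.87, 1.98, 5.86, 1.29 and 3.52 FPKM in knockout. Its knockout libraries were spread on both sides of the control values, with a coefficient of variation of 0.575, and its log2 difference of -0.20 had an interval of -0.89 to 0.48 (limma adjusted p = 0.610). Chek2 (chromosome 5, 110839979 to 110874145) was at 39.82, 19.29, 30.49, 32.65 and 29.36 FPKM in control and at 24.21, 22.44, 21.03, 22.39 and 20.80 FPKM in knockout. WT3 was below all knockout libraries and the other 4 controls above them. The log2 difference of -0.40 (limma adjusted p = 0.0493) was called without WT3 but lost without any of the other 9 libraries (adjusted p up to 0.118, and 0.0734 at -0.40 without CKO12), and it turned to 0.08 under the upper-quartile scaling. Rif1, the partner of 53BP1, and Topbp1, the activator of ATR, were not called, at log2 differences of -0.17 and 0.26 (limma adjusted p = 0.398 and 0.296). Topbp1 was at 9.71 FPKM in CKO12 and at 19.20 to 20.52 in the other 4 knockout libraries, against 10.27 to 17.38 in control, and without CKO12 its log2 difference was 0.45 (limma adjusted p = 0.0194).

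**Figure D2:**
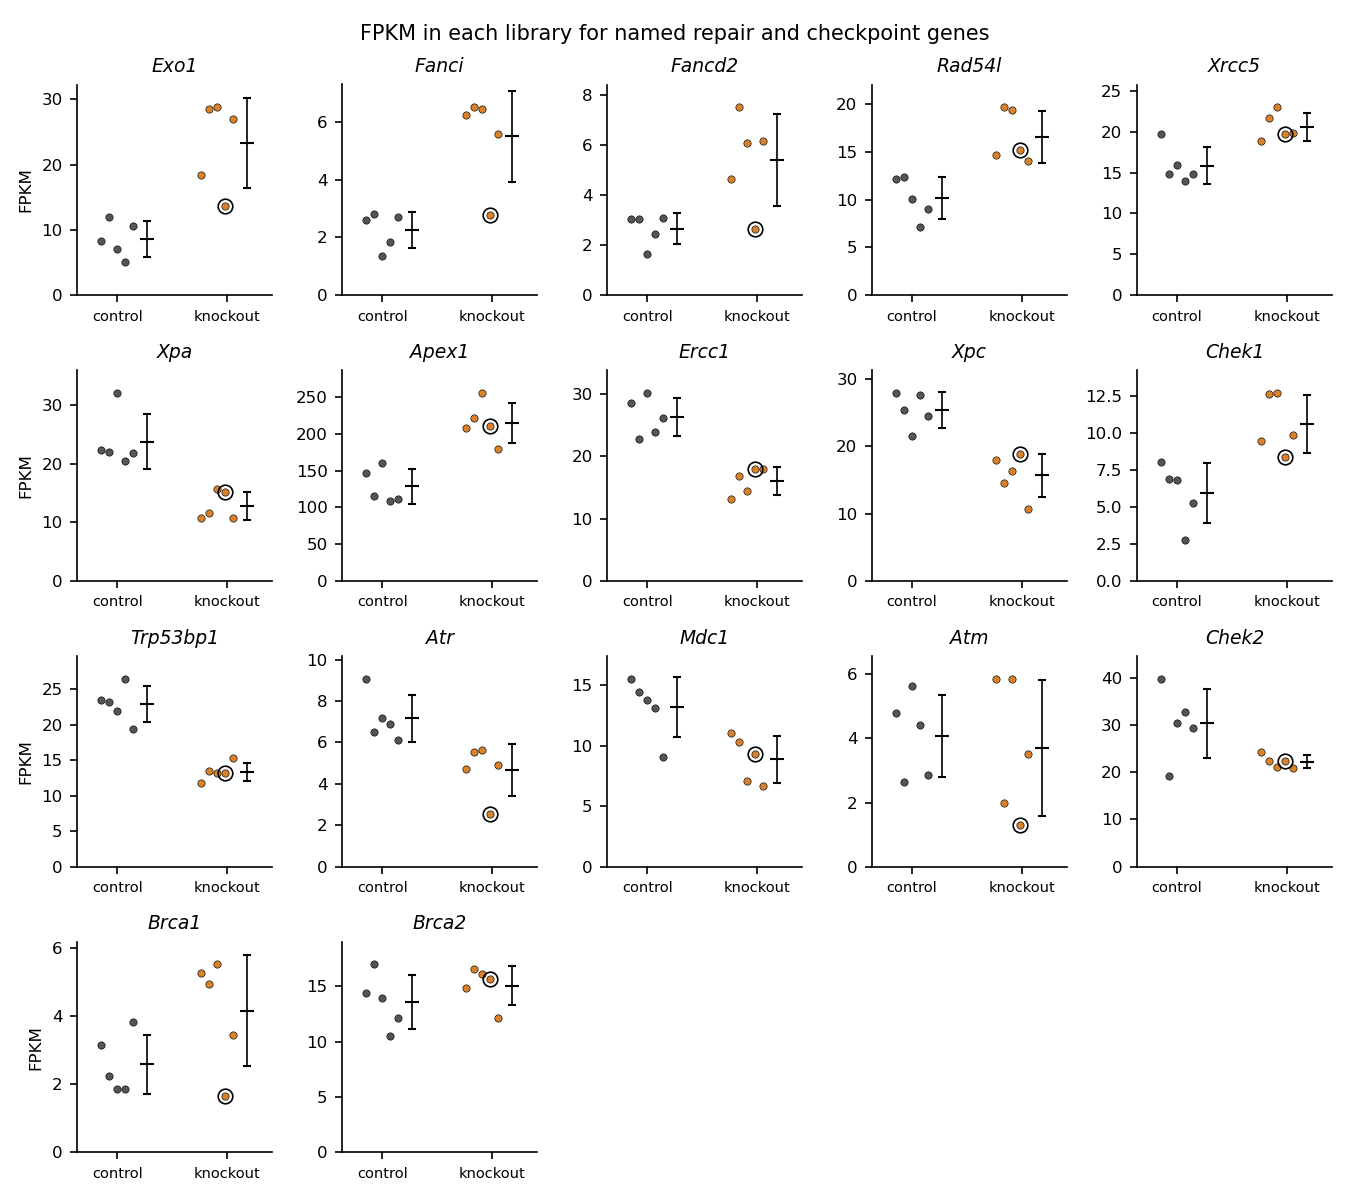
FPKM (y axis, from 0) in each of 5 control and 5 knockout libraries for 17 genes, with a bar for the mean ± SD of each group and an open ring around library CKO12. The groups of Exo1, Rad54l, Apex1, Chek1, Xpa, Ercc1, Xpc, Trp53bp1 and Atr do not overlap, and CKO12 is the lowest knockout library for Exo1, Fanci, Fancd2, Brca1, Atr and Atm among others.

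The share of genes called in each direction moved with the scaling between libraries. The median log2 difference of all genes tested was -0.26 with FPKM as deposited, and it shifted by 0.22 with median-of-ratios factors, by 0.41 with upper-quartile factors, by 0.34 when knockout libraries were scaled to the authors' fold changes and by -0.12 with equal totals. Of the 38 genes, 24, 26, 25 and 6 were then called higher and 4, 0, 2 and 8 lower, in that order. Brca1, Brca2, Blm, Mre11a, Nbn, Rad50, Fanca, Xrcc6 and Xrcc1, not called on FPKM as deposited, were called higher with the median-of-ratios factors, the upper quartile and the authors' fold changes alike, and Xrcc5, Rad18, Msh6, Palb2, Ung, Ddb1, Parp1, Parp2 and Usp1 lost their call with equal totals. Called higher under all 5 scalings were 6 genes, namely Exo1, Rad54l, Fancd2, Fanci, Apex1 and Chek1, which is 15.8% of those tested against 9.65% of all genes. Called lower under all 5 were 0 of the 38, against 10.4% of all genes tested. Taken relative to the median of all genes tested in the same fit, the median of the 15 homologous recombination and Fanconi genes was 0.74 higher, that of the 12 mismatch and excision repair genes 0.53 and that of the 3 end joining genes 0.40, while the 8 checkpoint genes were at -0.04. The nucleotide excision repair genes were at -0.42 on that measure and the base excision genes at 0.63.

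**Figure D3:**
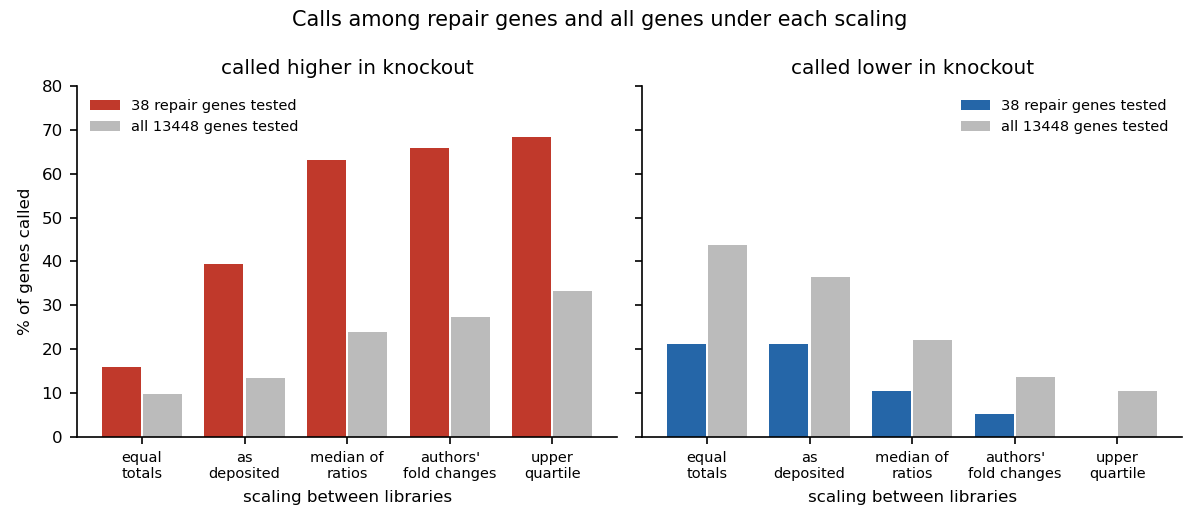
Share of genes called (y axis, %) higher (left) and lower (right) in knockout under 5 scalings of the libraries, for the 38 repair genes tested and for all 13448 genes tested. Calls of a rise among the repair genes run from 6 of 38 with equal totals to 26 of 38 with the upper quartile, and calls of a fall from 8 to 0, with the repair genes above all genes on the left and below them on the right in each scaling.

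The authors' deposited table gave more rises and fewer falls in this set. There, 28 of the 40 genes were higher and 1, Xpa, lower in the authors' deposited table at an adjusted p under 0.05, against 17.1% higher and 11.5% lower among its 23405 genes with an adjusted p. Calls agreed in direction for 16 genes. Of the 8 genes called lower here, 7 were not called in the authors' deposited table, where Atr was at a log2 fold change of -0.06, Mdc1 at -0.01, Trp53bp1 at -0.19 and Chek2 at 0.25. Brca1, Brca2 and Fanca, not called here, were at 1.27, 0.59 and 1.24 in the authors' deposited table.

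One knockout library stood low across these genes. CKO12 was the lowest of the 5 knockout libraries for 23 of the 40 genes (57.5%), against 35.6% of all genes tested and 55.8% of tested genes whose longest annotated transcript has 5000 bases or more. Over all genes tested, CKO12 lay 0.01 below the median of the other 4 knockout libraries (log2 scale) for transcripts under 2000 bases and 0.26 below it at 6000 bases or more. Control library WT4 showed a like slope, from 0.36 above to 0.11 below the median of its group. Leaving CKO12 out gave 18 genes called higher, with Fanca, Blm, Brca1, Topbp1 and Mre11a added and Parp2 and Usp1 lost, and 7 lower. Control library WT2 was the highest of its group for 21 of the 40 genes (52.5%). The share was 36.9% of all genes tested and 44.4% of those of 5000 bases or more. Leaving WT2 out gave 16 called higher, with Nbn and Mre11a added and Usp1 lost. Called lower were then 5, with Chek2, Atr and Mdc1 lost.

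Transcript length also went with the difference between genotypes over all genes. Among tested genes with a longest transcript under 2000 bases 19.0% were called higher and 24.6% lower, and among those of 6000 bases or more 4.34% and 48.8%. Of the 9 tested repair genes in the longest group, 1 was called higher (Exo1) and 3 lower (Atr, Mdc1 and Trp53bp1), and Atm, Rif1, Prkdc, Brca1 and Brca2 were not called. Xpa and Ercc1 were among the 3 with the shortest transcripts. Whether length has a part in the falls of Atr, Mdc1 and Trp53bp1 was not tested.

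**Figure D4:**
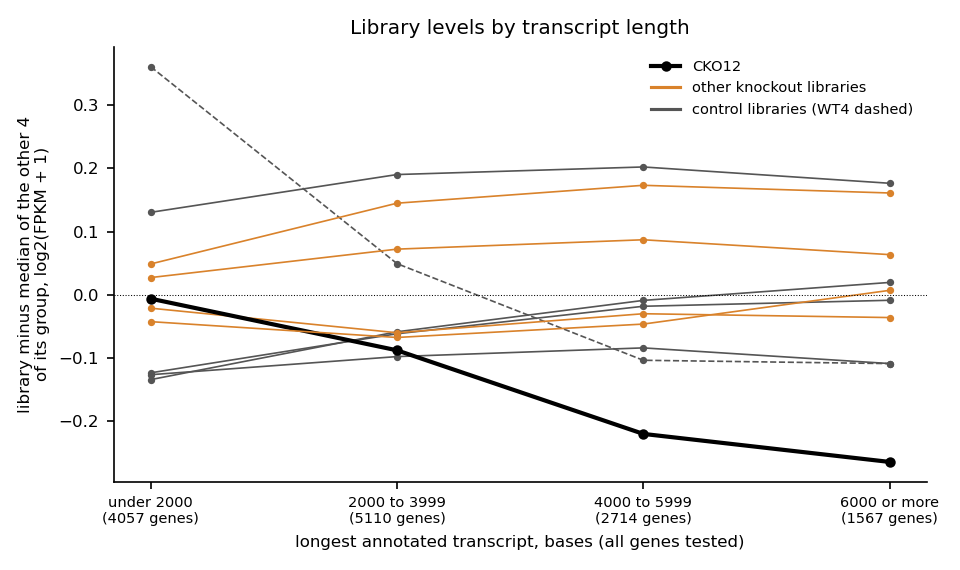
Median deviation of each library from the other 4 of its group (y axis, log2(FPKM + 1)) over all genes tested, in 4 groups of longest annotated transcript (x axis, bases). CKO12 falls from -0.01 to -0.26 with length, and WT4 (dashed) from 0.36 to -0.11.

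In control libraries the mean levels of the 40 genes ran from 0.420 FPKM (Bard1) to 129 FPKM (Apex1), with a median of 13.4 FPKM. Apex1, Ddb1, Xrcc6, Parp1, Xrcc1 and Parp2 headed this order, and base excision genes had a median of 47.2 FPKM against 9.19 FPKM for the homologous recombination and Fanconi genes. Neighbours in the order such as Xrcc6, Parp1, Xrcc1 and Parp2 (56.1 ± 4.86, 55.2 ± 6.999, 47.9 ± 2.86 and 46.4 ± 12.6 FPKM) lay within or close to their spread. At the low end stood Bard1, Lig4, Fanci, Brca1 and Fancd2, the last 3 at 2.25 ± 0.634, 2.58 ± 0.860 and 2.65 ± 0.626 FPKM.

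Promoter sequences were searched for letters known from cell cycle genes. RefSeq (GRCm38.p6) gave 34 promoters for 31 of the 40 genes, each with 250 bases before and 50 after the start. The E2F-type letters TTTCCCGC, TTTGGCGC, TTTGCCGC or TTTCGCGC, on either strand, stood in 7 of these 34 (20.6%), in 2.26% of all 32851 promoters and in 3.85% of promoters of genes tested. They were in 1 of 14 promoters of genes called higher (Msh6), 2 of 7 called lower (Chek2 and Mdc1), 3 of 10 not called (Brca2, Topbp1 and Xrcc6) and that of Bard1. The stretches of 30 bases around these matches are shown 5′ to 3′ on the strand of the gene, with the match in capitals, because they show where matches sit in genes that moved in both directions.
Msh6 (chr17:87975054-87975083, plus strand, called higher): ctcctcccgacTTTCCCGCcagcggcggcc
Chek2 (chr5:110839820-110839849, plus strand, called lower): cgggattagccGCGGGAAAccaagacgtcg
Mdc1 (chr17:35841471-35841500, plus strand, called lower): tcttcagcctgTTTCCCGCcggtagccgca
Brca2 (chr5:150522442-150522471, plus strand, not called): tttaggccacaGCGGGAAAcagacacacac
Topbp1 (chr9:103305187-103305216, plus strand, not called): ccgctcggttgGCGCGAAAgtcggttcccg
Xrcc6 (chr15:82016312-82016341, plus strand, not called): agggggtggaaGCGGGAAAtgcgagtgggc
Bard1 (chr1:71103163-71103192, minus strand, not tested): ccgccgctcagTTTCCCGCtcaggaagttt

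Of the 4 called rises that were largest among genes with a RefSeq promoter (Fanci, Chek1, Apex1 and Rad54l), 0 had an exact E2F-type match inside the window searched. Apex1 and Rad54l had the CCAAT box. Near matches were not counted, such as GCGGGAAT after the start of Fanci. The Chek1 window ends in GCGGGAA, so whether the searched letters GCGGGAAA stand there cannot be seen. CCAAT on either strand was in 16 of 34 promoters (47.1%) and in 37.4% of all promoters, and the letters TTTGAA of the cell cycle homology region in 1 of 34 (2.94%) and in 17.9%. The 100 bases before the RefSeq start of these 4 genes follow, with CCAAT or its complement in capitals. The RefSeq starts of Fanci and Chek1 lie 409 and 407 bases inside the GENCODE gene starts, and that of Xrcc6, whose match is shown above, 28534 bases from it.
Fanci (chr7:79392238-79392337, plus strand): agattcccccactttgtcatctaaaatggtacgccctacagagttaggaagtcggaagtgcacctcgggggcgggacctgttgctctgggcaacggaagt
Chek1 (chr9:36726659-36726758, minus strand): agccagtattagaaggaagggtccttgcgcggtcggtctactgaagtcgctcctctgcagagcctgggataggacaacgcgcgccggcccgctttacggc
Apex1 (chr14:50924849-50924948, plus strand): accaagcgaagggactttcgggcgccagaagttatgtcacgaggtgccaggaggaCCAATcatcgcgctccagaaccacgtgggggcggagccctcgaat
Rad54l (chr4:116123691-116123790, minus strand): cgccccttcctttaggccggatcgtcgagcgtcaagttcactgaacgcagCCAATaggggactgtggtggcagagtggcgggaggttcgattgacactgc

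Many of these genes share a start region with a neighbour. A divergent start within 1000 bases was annotated for 17 of the 40 genes (42.5%) and for 16.3% of tested protein-coding genes. Among 12 tested neighbours of tested members, both genes of the pair were called in the same direction for 1 pair, Chek2 and Hscb, where Hscb fell by 0.92 on the log2 scale. Prkdc starts 466 bases from Mcm4, a replicative helicase subunit that rose from 42.7 to 103 FPKM (log2 1.27, limma adjusted p = 4.07e-05) while Prkdc was not called. Xpc (lower) starts 40 bases from Lsm3 (higher, log2 0.64, limma adjusted p = 0.0113), and Brca1 (not called) 194 bases from Nbr1 (lower, log2 -0.77, adjusted p = 0.00225). Exons of 18 of the 40 genes overlap those of another gene, a share that was not counted over all genes tested. Without a stated strand setting, reads in the shared stretches cannot be told apart.

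Other genes of the same pathways were taken from a list of 80. Of 78 tested, 17 (21.8%) were called higher and 12 (15.4%) lower, with a median log2 difference of 0.08. Among the largest rises were Dna2 (8.92 ± 1.81 to 30.2 ± 8.38 FPKM), which resects ends beside EXO1, Tipin (80.9 ± 19.0 to 194 ± 16.9), a fork protection factor, Eme1 (3.98 ± 1.02 to 9.34 ± 1.94), a subunit of a junction-cutting nuclease, and Rpa1 (60.2 ± 11.2 to 124 ± 15.6), which coats single strands. Their log2 differences were 1.62, 1.28, 1.06 and 1.04, each called under all 5 scalings.

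The 5 largest falls were Uvssa (8.11 ± 1.09 to 2.98 ± 0.404 FPKM), a factor of transcription-coupled excision repair, the base excision glycosylases Neil1 (8.15 ± 1.18 to 3.77 ± 0.813) and Nthl1 (13.1 ± 2.15 to 7.61 ± 1.05), and the end joining genes Dclre1c (8.31 ± 1.21 to 4.48 ± 0.606), which encodes Artemis, and Xrcc4 (11.4 ± 2.17 to 6.99 ± 1.19), the scaffold of LIG4. Uvssa, Neil1 and Dclre1c were called lower under all 5 scalings, at log2 differences of -1.19, -0.95 and -0.76, while Nthl1 and Xrcc4 (-0.70 and -0.63) lost the call under the upper-quartile and authors' scalings. Of 7 end joining genes on this list, 5 were called lower and 1 higher, beside 36.4% lower and 13.4% higher among all genes tested, and with upper-quartile scaling Dclre1c alone of these 5 remained lower. Of 24 tested for homologous recombination and Fanconi, 7 were called higher and 1 lower. Of 31 tested for mismatch and excision repair, 4 (12.9%) were called higher and 6 (19.4%) lower. The 6 were Uvssa, Neil1, Nthl1, Ercc4, Mpg and Smug1. With upper-quartile scaling 18 of this class were called higher and 2, Uvssa and Neil1, lower. Of 16 for checkpoint signalling, 5 were called higher and 0 lower by limma (1 lower at an unadjusted p under 0.05). This is the same class where 4 of the 8 genes described above were called lower.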

How the data were processed

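The deposited file is 1 table of 52097 genes. Its library columns were taken as FPKM made by the authors, inferred from 2-decimal values whose sums differ between libraries and from the deposited normalized count per FPKM, whose Spearman correlation with the length of the transcript was 0.791 (6849 genes, not independent replicates). The deposited mean normalized counts (a signal), log2 fold changes with standard errors, and adjusted p-values are the authors' DESeq2 columns per the file headers. The submitters' processing notes list Bowtie 0.12.9, Cufflinks 2.1.1, HTSeq and mm10, with no roles. All gene identifiers matched GENCODE M21 (GRCm38).

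The 13448 genes that reached 1 FPKM in 5 or more of the 10 libraries were fitted with limma 3.58.1 (R 4.3.3; trend, robust; 5 against 5, no covariate) on log2(FPKM + 1), and adjusted over all of them by Benjamini-Hochberg. The design named a count model only for count files. The pseudocount of 1 understates changes of low genes. Confidence intervals are unadjusted limma intervals. The fit was tested on simulated data. Alternatives covered filters, pseudocounts, 4 scalings, moderation, library weights and leaving out each library. Scaling to the authors' fold changes used 1 factor for all knockout libraries.

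The 40 genes, their classes and the lists were chosen with earlier results of these data known. Values in every library are given for up to 4 called genes of each class with the largest absolute change, the 4 kinases, Brca1, Brca2 and Fancd2. Rad52 and Fanca are also given by library, chosen after their values were seen. The 5 called other pathway genes with the largest change each way are given as mean ± SD. One of these other pathway genes is not reported here.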

Additional observations from a re-analysis of the deposited data

Results flagged for a closer look

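Libraries far from the other 4 of their group were looked for in 100 groups (40 repair genes and 10 other pathway genes, control and knockout apart, log2 scale), where chance marks about 5%. There were 7. In 5 of them CKO12 was low among knockout libraries. Palb2 was at 5.65 FPKM there and at 8.02 to 8.74 in the other 4, Rad52 at 9.31 against 13.76 to 16.06, Fanci at 2.76 against 5.57 to 6.51, Atr at 2.54 against 4.73 to 5.65 and Topbp1 at 9.71 against 19.20 to 20.52. Among control libraries, Xpa was high in WT4 (32.04 FPKM, others 20.42 to 22.38) and Nthl1 low in WT3 (9.28 FPKM, others 13.63 to 14.54).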

How the results depend on the processing

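No paired analysis was possible because the library columns carry other numbers than the sample titles. Depth per library is unknown, so counting error in each library could not be given for the low genes (Bard1, Lig4, Fanci, Brca1, Fancd2). Their deposited mean normalized counts over all libraries were 62.2, 42.9, 251, 258 and 240 in that order. Against 15 higher and 8 lower of the 38 genes, the calls were 24 and 4 (median of ratios), 26 and 0 (upper quartile), 25 and 2 (authors' fold changes), 6 and 8 (equal totals) and 9 and 5 (no filter, 40 genes). Leaving out 1 library gave 11 to 18 higher and 5 to 8 lower, the 5 without WT2, where Atr, Mdc1 and Chek2 were lost. For the other pathway genes, 17 higher and 12 lower became 40 and 6, 51 and 3, 42 and 3 and 10 and 17 under the scalings in that order, 27 higher with library weights and 2 lower at 10 FPKM, where 50 genes were tested. The median relative to all genes tested was 0.36 (10 FPKM, 27 genes) and 0.39 (no filter) against 0.55. By class it was 0.50 at 10 FPKM for recombination, 0.0796 without a filter for end joining, 0.38 and 0.37 for mismatch and excision repair, and -0.35 and -0.20 for the checkpoint, which was 0.0013 with library weights and -0.15 to 0.0083 over left-out libraries. Signs turned for genes that were not called: Rad50 (-0.0810 with equal totals, and -0.0139 to 0.105 over left-out libraries), Prkdc (0.19 upper quartile, 0.12 authors), Lig3 (0.0872, 0.30 and 0.22 for median of ratios, upper quartile and authors), Rif1 (0.0597, 0.26 and 0.19), Ddb2 (0.23, 0.45 and 0.36, 0.0929 with weights, -0.11 to 0.0625 left out) and Atm (0.17 upper quartile, 0.11 authors, -0.37 to 0.0229 left out). Chek2, which was called, turned to 0.0751 with the upper quartile. The cause was not tested.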
